A study of Mus musculus with 112 samples.

Results

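The cytosolic ribosomal proteins are the protein parts of the ribosomes that translate messages from nuclear genes. Their transcripts were followed here in epididymal fat, gastrocnemius muscle and liver of mice that differed in Pparγ genotype and in diet. Members were probe sets with a gene symbol that starts with Rpl or Rps and a number, or that is Rplp0, Rplp1, Rplp2 or Rpsa. Kinases (15 probe sets of 9 genes), symbols with the ending of a related gene (8 probe sets of 6 genes) and Rps19bp1, a binding partner of a ribosomal protein, were left out. This gave 33 probe sets of 27 genes among 32640 probe sets and 16643 named genes. The large subunit has 18 of these probe sets (15 Rpl genes) and the small subunit has 15 (12 Rps genes). An NCBI gene table of GRCm38.p6 lists 76 protein-coding genes that meet the same rule, so most of the family is not covered, and Rplp0, Rplp1, Rplp2 and Rpl19 are not analysed here. Rps24 has 3 probe sets, Rpl8, Rpl13a, Rpl22 and Rps3 have 2, and the other 22 genes have 1.

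The mice were males that carried either alanine at position 12 of Pparγ2 on both alleles (Ala/Ala, a knock-in) or the wild-type proline (Pro/Pro littermates). Pparγ is the nuclear receptor that drives fat cell formation. From 8 weeks of age they ate a high-fat diet (HFD) or stayed on chow, for 15 weeks by the series text and for 12 weeks by the sample descriptions, which also name another high-fat feed. In fat there were 8 Ala/Ala HFD, 9 Ala/Ala chow, 10 Pro/Pro HFD and 10 Pro/Pro chow arrays. Muscle had 9, 10, 8 and 8 arrays in that order, and liver had 10 per group. Each array is 1 mouse, and 31 of 41 mice were measured in 3 tissues. Each value is on the log2 scale and sets a mouse against a computed pool of that tissue's Pro/Pro HFD mice, so the Pro/Pro HFD groups lie near 0 by construction. The ratios carry no level, so genes cannot be ranked by abundance, and the tissue labels cannot be checked against absolute marker levels.

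A ribosome holds a single copy of nearly every ribosomal protein, and the genes for them are among the most strongly transcribed in any cell. Their mRNAs typically start with a run of pyrimidines (C and T in the DNA), the 5′ terminal oligopyrimidine tract. Through this tract TOR complex 1 and the RNA-binding protein Larp1 set how much of each mRNA is translated. In fat, muscle and liver several of these genes (Rpl13a, Rpl32, Rps16, Rps18) serve as references in quantitative PCR on the assumption that they do not move.

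Runs of C and T were looked for in the promoter sequences of RefSeq on GRCm38.p6, which held 22 of the 27 genes. Of these, 13 (59.1%) had an unbroken run of at least 8 C or T on the transcribed strand in the window that begins 50 bases before the most upstream annotated start and goes on for 30 bases from the start. Among all 27022 genes in RefSeq's list, 30.2% had such a run. A run counted wherever it lay in the window. Those of Rpl4, Rpl5, Rps15a and Rps16 lie wholly before the annotated start, so these are not counts of tracts that open the mRNA. The longest run in a member was 17 bases and the median over members was 9, against 6 over all genes. Windows of 6 genes that the results turn on follow, with the longest run of C and T in capitals.
Rpl13a (chr7:45128716-45128795, minus strand): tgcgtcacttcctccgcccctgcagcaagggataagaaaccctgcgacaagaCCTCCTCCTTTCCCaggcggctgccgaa
Rpl4 (chr9:64173337-64173416, plus strand): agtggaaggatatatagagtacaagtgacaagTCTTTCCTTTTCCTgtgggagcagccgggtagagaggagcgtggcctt
Rps27 (chr3:90213619-90213698, minus strand): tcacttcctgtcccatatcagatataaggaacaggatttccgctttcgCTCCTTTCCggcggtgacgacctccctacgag
Rps18 (chr17:33955636-33955715, minus strand): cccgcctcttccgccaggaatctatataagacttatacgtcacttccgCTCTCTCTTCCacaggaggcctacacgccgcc
Rps24 (chr14:24490628-24490707, plus strand): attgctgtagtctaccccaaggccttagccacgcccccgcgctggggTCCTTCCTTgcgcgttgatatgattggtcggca
Rpl22 (chr4:152324386-152324465, plus strand): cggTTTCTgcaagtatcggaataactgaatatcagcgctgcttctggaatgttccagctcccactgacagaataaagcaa
Rpl13a, Rps27, Rps18 and Rps24 show a run of 9 or more bases. That of Rpl13a begins just after the annotated start, at 2. Those of Rps27, Rps18 and Rps24 begin before it, at -2, -2 and -3, and span it. The run of Rpl4 (14 bases) begins at -18 relative to the start and ends before it. Rpl22 has no run longer than 5 in its window.

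On the high-fat diet small falls outnumbered rises among these genes in fat. Over both genotypes 13 of 33 probe sets fell and 2 rose at an adjusted p under 0.05 (limma, adjusted over all 32640 probe sets). Fat responded to diet broadly: 38.7% of all probe sets were called, 20.3% lower and 18.4% higher. The median member difference was -0.07, against 0.02 over all probe sets, and 22 of 33 members lay below 0 (66.7%, against 43.9% of all probe sets). Members moved together from mouse to mouse, as described below, so counts of signs here and in the other tissues are not counts of independent results. Of the small subunit 7 of 15 probe sets fell and 1 rose, and of the large subunit 6 of 18 fell and 1 rose. In Ala/Ala mice alone 6 fell and 1 rose, where 26.9% of all probe sets were called (14.6% lower and 12.3% higher). In Pro/Pro mice alone 4 fell and 1 rose, where 22.5% of all were called (13.1% lower and 9.36% higher). No member passed the test of the diet by genotype interaction in fat (limma, 0 at an unadjusted p under 0.05, and 4.97% of all probe sets did so). The falls are shallow: apart from 1 Rps24 probe set, the called falls over both genotypes lay between -0.10 and -0.20. The share of members called, 45.5%, and the share that fell, 39.4%, depend on the processing. With quantile normalization 6 members fell and 1 rose (18.2% lower, 21.2% called), beside 17.2% lower and 31.4% called over all probe sets. Without 10 fat arrays described below, 8 of them on HFD, 7 fell and 3 rose (21.2% lower, 30.3% called), beside 16.8% lower and 31.1% called over all. Under either setting the share of members called no longer exceeded that of all probe sets. Of the calls over both genotypes, Rpl3, Rpl37, Rpl8, Rps21 and Rps27 were lost under both settings, Rps14, Rps9 and Rpsa with quantile normalization, and Rps24 100030631_TGI_at without the 10 arrays.

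**Figure D1:**
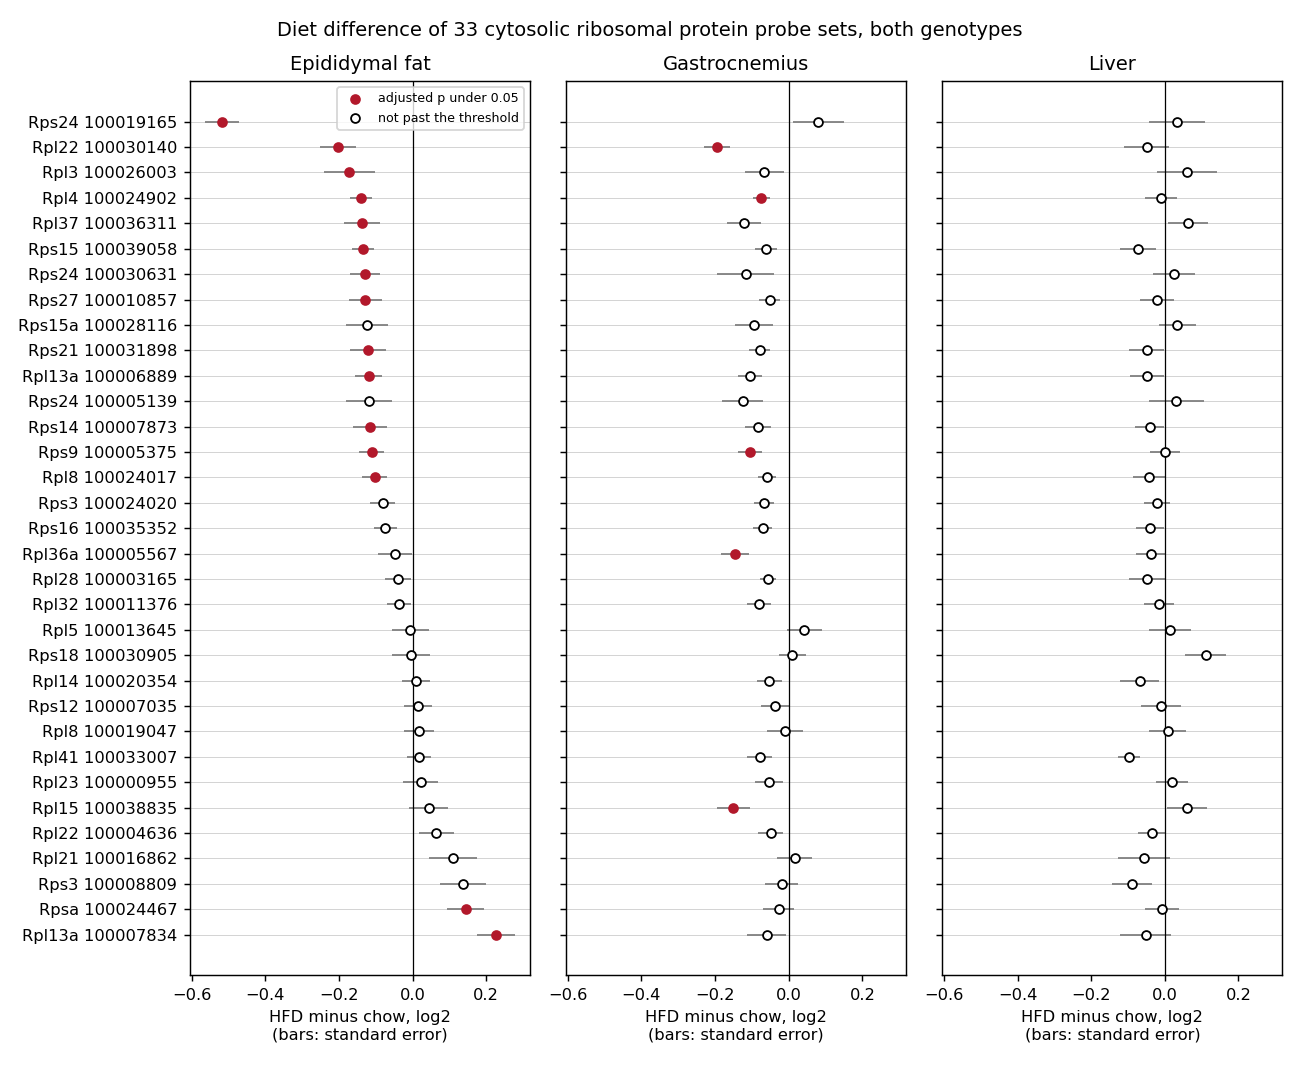
Diet difference (HFD minus chow, log2, over both genotypes) of each of the 33 probe sets in fat, muscle and liver, with standard errors. Filled points passed an adjusted p of 0.05. In fat 1 Rps24 probe set stands at -0.52, far left of all others. Most muscle points also lie left of 0, and no liver point is filled.

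Rps24 encodes a small-subunit protein needed to process the precursor of the small-subunit rRNA, and its mRNA is spliced into forms with different 3′ ends. The Rps24 probe set 100019165_TGI_at gave the largest diet difference of the family. In fat of Ala/Ala HFD mice it ranged from -0.28 to 0.17 (median -0.10), against 0.39 to 0.66 (median 0.50) in Ala/Ala chow mice. In Pro/Pro HFD mice it ranged from -0.26 to 0.23 (median -0.02), against 0.25 to 0.79 (median 0.45) in Pro/Pro chow mice. Within each genotype no HFD array reached the lowest chow array. Group means were -0.06 ± 0.15 (SD, n = 8) and 0.51 ± 0.09 (n = 9) in Ala/Ala HFD and chow mice. They were -0.01 ± 0.14 (n = 10) and 0.46 ± 0.15 (n = 10) in Pro/Pro HFD and chow mice. The difference was -0.57 ± 0.07 (SE) in Ala/Ala mice, a fold change of 0.674 (limma adjusted p 1.1e-07). It was -0.46 ± 0.06 in Pro/Pro mice, a fold change of 0.724 (adjusted p 8.1e-07). The call held at each of 37 omissions of 1 array and under the normalization, filter, weighting and array-omission settings tried (-0.52 over both genotypes without 10 fat arrays described below, adjusted p 1.6e-07). The mean of the 3 Rps24 probe sets fell less, by 0.30 in Ala/Ala and 0.21 in Pro/Pro mice, and was called in each.

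The other Rps24 probe sets moved far less in the same arrays. Probe set 100030631_TGI_at fell by 0.18 ± 0.06 in Ala/Ala mice (limma adjusted p 0.025), a call lost without the 10 fat arrays and in 3 of 37 omissions of a single array. In Pro/Pro mice its difference was -0.08. Probe set 100005139_TGI_at gave -0.17 in Ala/Ala and -0.07 in Pro/Pro mice and passed in neither. Its ranges were -0.47 to 0.17 in Ala/Ala HFD mice and -0.16 to 0.35 in Ala/Ala chow mice, so these groups overlap widely. Which spliced forms each Rps24 probe set reads is not known from the files. In muscle 100019165_TGI_at differed by 0.08 ± 0.07 and in liver by 0.03 ± 0.08 over both genotypes, with overlapping groups, and neither passed.

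**Figure D2:**
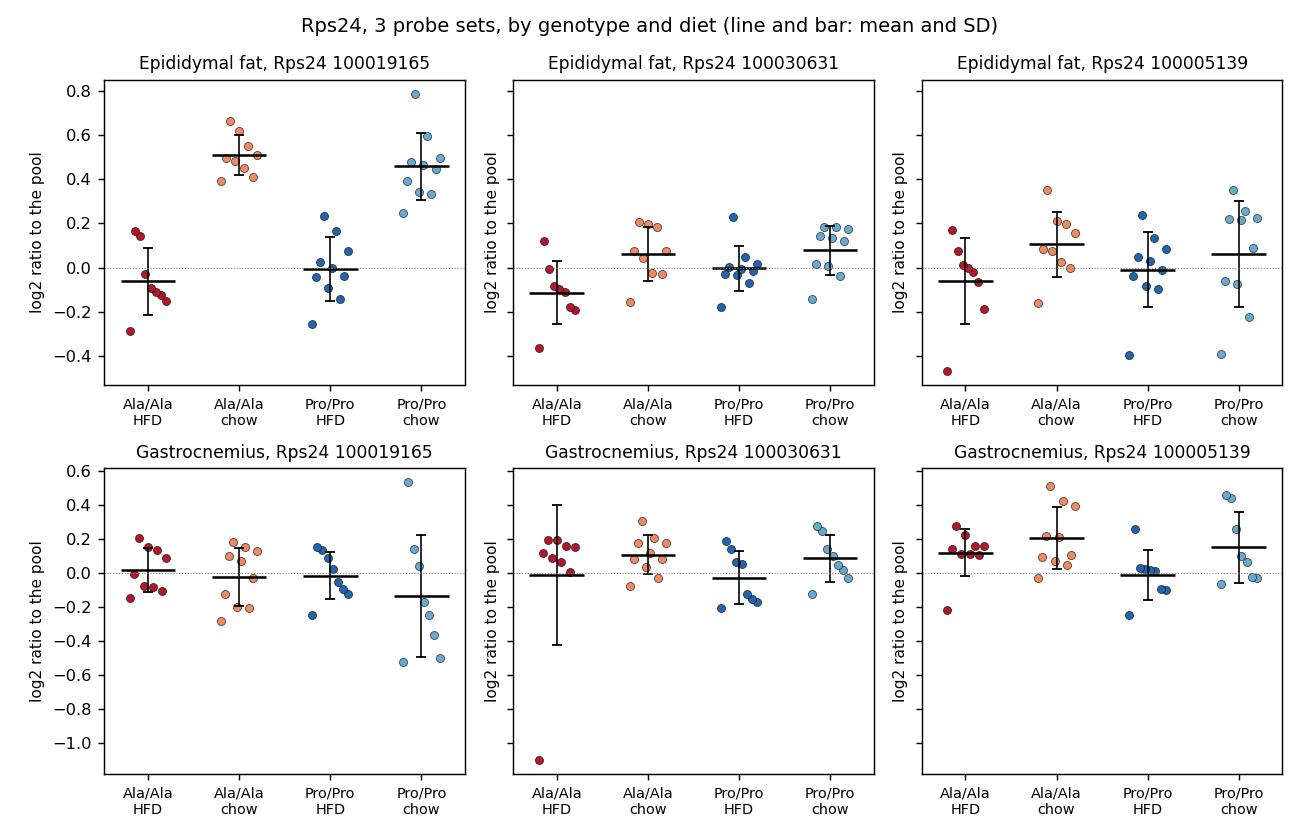
Log2 ratio to the pool of the 3 Rps24 probe sets on each fat and muscle array, by genotype and diet, with mean and SD. HFD and chow arrays of fat separate for probe set 100019165_TGI_at and overlap for the other two. A single Ala/Ala HFD muscle array lies at -1.10 for 100030631_TGI_at.

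Among the other small-subunit genes, Rps15, which the subunit needs for export from the nucleus, fell in both genotypes. It ranged from -0.18 to 0.13 (median -0.09) in Ala/Ala HFD fat, against -0.01 to 0.16 (median 0.09) in Ala/Ala chow fat. In Pro/Pro HFD fat it ranged from -0.13 to 0.12 (median 0.01), against 0.01 to 0.19 (median 0.12) in Pro/Pro chow fat. The groups overlap, with the medians apart by more than 0.1 in each genotype. Rps15 fell by 0.15 ± 0.05 (SE) in Ala/Ala mice (limma adjusted p 0.013) and by 0.12 ± 0.04 in Pro/Pro mice (adjusted p 0.028). Without the 10 fat arrays Rps15 was called in neither genotype alone, and the Pro/Pro call was also lost with quantile normalization and in 7 of 37 omissions of a single array. The call over both genotypes held under these settings. Rps9, which lies at the mRNA entry, Rps27, a zinc-binding protein, Rps21 and Rps14 were called only over both genotypes. Their falls there were 0.11 (adjusted p 0.0087), 0.13 (0.021), 0.12 (0.045) and 0.12 (0.048). Rps21 and Rps14 stand near the threshold: the call was lost in 20 and 22 of 37 omissions of a single array. The reference gene Rps16 gave -0.07 ± 0.03 (adjusted p 0.058) and Rps18 gave 0.00 ± 0.05 (adjusted p 0.96).

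Among the large-subunit genes, Rpl4, which lines the exit tunnel for the growing chain, was called in each genotype. It ranged from -0.17 to 0.09 (median 0.02) in Ala/Ala HFD fat, against -0.01 to 0.27 (median 0.11) in Ala/Ala chow fat. It ranged from -0.17 to 0.10 (median -0.03) in Pro/Pro HFD fat, against 0.07 to 0.27 (median 0.14) in Pro/Pro chow fat. The Pro/Pro ranges overlap only at their edges, and the Ala/Ala ranges overlap more widely. Rpl4 fell by 0.12 ± 0.04 (SE) in Ala/Ala mice (limma adjusted p 0.041) and by 0.16 ± 0.04 in Pro/Pro mice (adjusted p 0.0045). The Ala/Ala call of Rpl4 was lost with quantile normalization, without the 10 fat arrays and in 7 of 37 omissions of a single array, while the Pro/Pro call held under these. Rpl3, which helps shape the peptidyl transferase centre, fell by 0.27 ± 0.10 in Ala/Ala mice (adjusted p 0.042). In Pro/Pro mice Rpl3 gave -0.07 ± 0.09 (adjusted p 0.65), and the genotypes were not shown to differ. The Ala/Ala call of Rpl3 was lost in 11 of 37 omissions and without the 10 fat arrays, and its call over both genotypes in 21 of 37. Rpl37 (-0.14, adjusted p 0.021) and the Rpl8 probe set 100024017_TGI_at (-0.10, adjusted p 0.015) were called over both genotypes. The reference gene Rpl32 gave -0.04 ± 0.03 (adjusted p 0.37).

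Rpl22 and Rpl13a show that probe sets of 1 gene can part. Rpl22 is a large-subunit protein that mammalian cells can do without and that a related gene, Rpl22l1, can replace. Its probe set 100030140_TGI_at ranged from -0.34 to 0.21 (median 0.04) in Pro/Pro HFD fat, against 0.12 to 0.40 (median 0.21) in Pro/Pro chow fat. It fell by 0.22 ± 0.06 (SE) in Pro/Pro mice (limma adjusted p 0.0094), and gave -0.18 ± 0.07 in Ala/Ala mice (adjusted p 0.055). The Pro/Pro call was lost with quantile normalization and without the 10 fat arrays. Over both genotypes the fall was 0.20 (adjusted p 0.00084), while Rpl22 100004636_TGI_at gave 0.06 (adjusted p 0.30). Rpl13a, which also takes part in silencing inflammatory mRNAs and carries small nucleolar RNAs in its introns, had probe sets called in opposite directions. Probe set 100007834_TGI_at ranged from -0.32 to 0.49 (median -0.05) in Ala/Ala HFD fat, against -0.45 to -0.10 (median -0.28) in Ala/Ala chow fat. In Pro/Pro HFD fat it ranged from -0.25 to 0.19 (median 0.02), against -0.40 to -0.10 (median -0.23) in Pro/Pro chow fat. It rose by 0.23 ± 0.08 in Ala/Ala mice (adjusted p 0.021) and by 0.22 ± 0.07 in Pro/Pro mice (adjusted p 0.019). Probe set 100006889_TGI_at fell by 0.14 ± 0.05 in Ala/Ala mice (adjusted p 0.040), and its Pro/Pro difference was -0.10. In Ala/Ala mice both Rpl13a calls were lost with quantile normalization, and that of 100006889_TGI_at also without the 10 fat arrays and in 7 of 37 omissions of a single array. Over both genotypes both calls held. The mean of the Rpl13a probe sets over both genotypes was 0.05 (adjusted p 0.23), so the direction of Rpl13a depends on the probe set read. The other rise, over both genotypes, was that of Rpsa, a small-subunit protein also known as the laminin receptor, by 0.14 ± 0.05 (adjusted p 0.020).

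**Figure D3:**
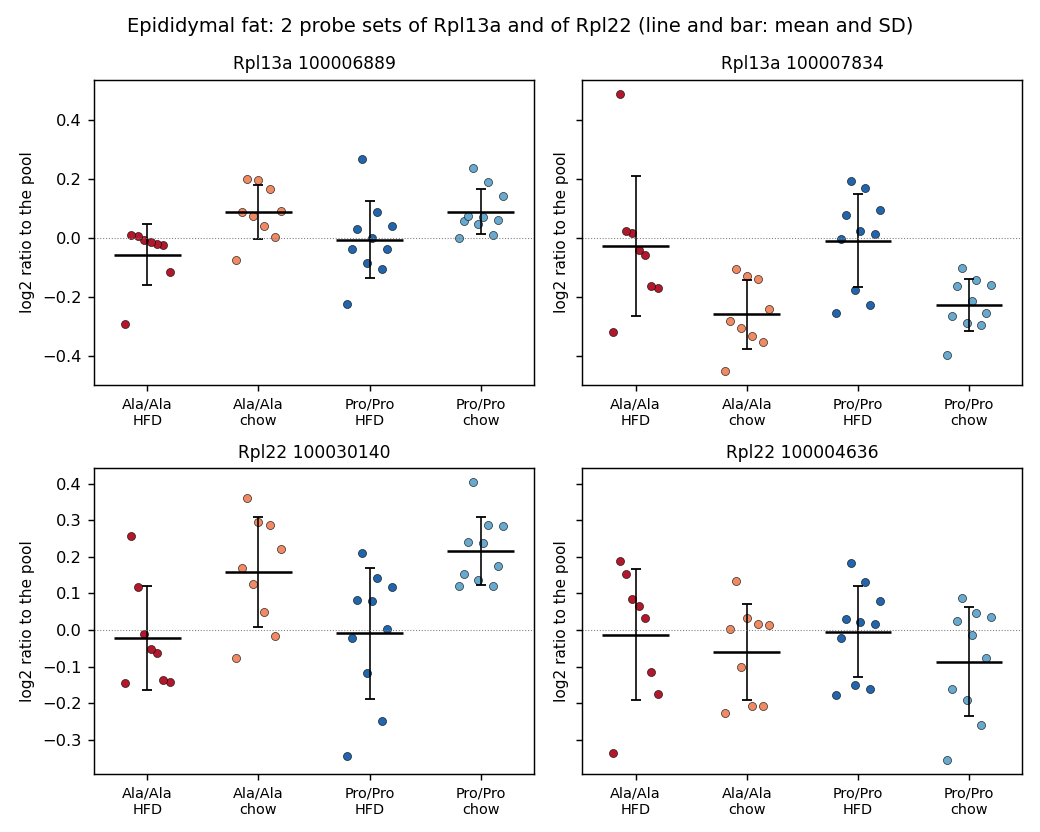
Log2 ratio to the pool on each fat array for the probe sets of Rpl13a (top) and Rpl22 (bottom), by genotype and diet, with mean and SD. Chow means lie above HFD means for Rpl13a 100006889 and Rpl22 100030140, and below them for Rpl13a 100007834 and Rpl22 100004636.

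Relatives of these genes outside the rule moved the other way in fat. The related genes fixed for comparison were 6, the binding partner Rps19bp1 among them, with 8 probe sets, 3 of them of Rpl7l1. Over both genotypes 7 of the 8 rose and none fell, with a median of 0.22. Of all probe sets 18.4% rose and 20.3% fell. Rps27l, a p53-induced relative of Rps27, ranged from -0.28 to 0.18 (median 0.04) in Ala/Ala HFD fat, against -0.32 to -0.17 (median -0.22) in Ala/Ala chow fat. In Pro/Pro HFD fat it ranged from -0.08 to 0.13 (median -0.01), against -0.32 to -0.12 (median -0.24) in Pro/Pro chow fat, with no overlap. Rps27l rose by 0.22 ± 0.05 (SE) in Ala/Ala mice (limma adjusted p 0.00086) and by 0.23 ± 0.04 in Pro/Pro mice (adjusted p 0.00017), while Rps27 fell over both genotypes. Rpl7l1, a nucleolar relative of Rpl7, rose by 0.36, 0.24 and 0.13 in its 3 probe sets over both genotypes (adjusted p 1.2e-05, 0.00024 and 0.011). Rps19bp1 rose by 0.18 (adjusted p 0.00083) and Rpl39l, known from the testis, by 0.22 (adjusted p 0.039). Rpl22l1 gave 0.11 (adjusted p 0.060). Rpl36al, a copy of Rpl36a on another chromosome that was not on the list, rose by 0.09 (adjusted p 0.029). Rpl3l, the striated-muscle relative of Rpl3, rose by 0.27 (adjusted p 0.029) but gave 0.08 (adjusted p 0.40) without the 10 fat arrays, where 6 of the 8 probe sets still rose. With quantile normalization 4 of the 8 rose. Of all probe sets 14.3% rose without the 10 fat arrays and 14.2% with quantile normalization. Signal from close relatives on a shared probe cannot be told apart from the table.

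**Figure D4:**
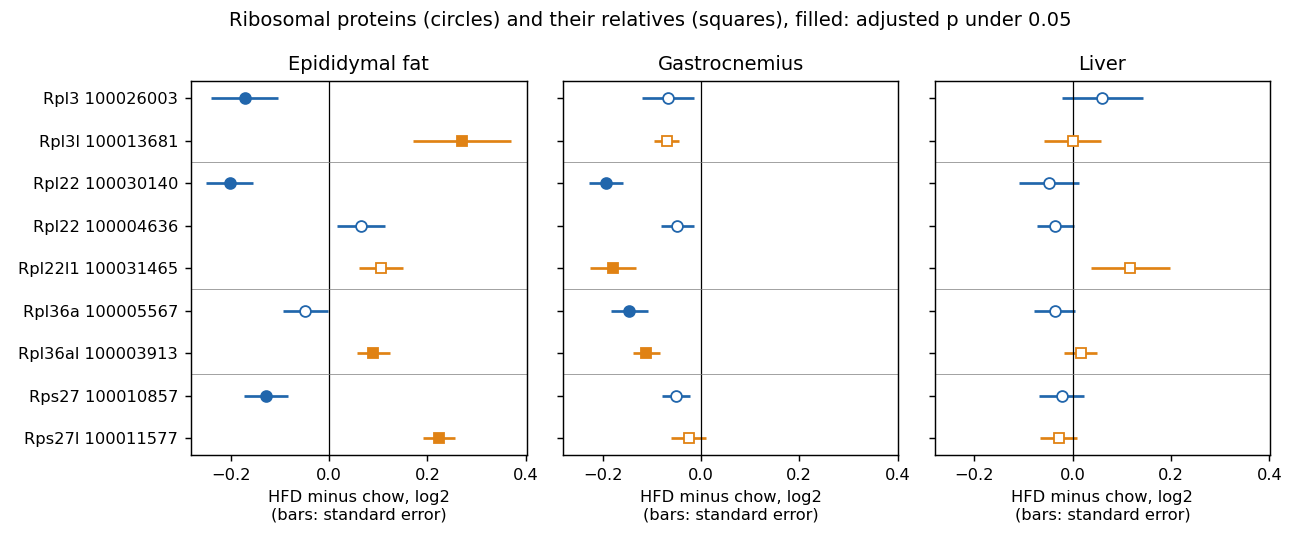
Diet difference (HFD minus chow, log2, over both genotypes, with standard errors) of 4 ribosomal protein genes (circles) and their relatives (squares) in fat, muscle and liver. In fat each relative lies to the right of 0 and of its partner. In muscle all 4 genes and their relatives lie to the left of 0.

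The rest of the translation apparatus did not share a direction in fat. Over both genotypes 18.4% of all probe sets rose there and 20.3% fell, the shares to set beside each count below. Fau, whose product yields the small-subunit protein eS30 but whose symbol is outside the rule, fell by 0.11 ± 0.04 (SE) over both genotypes (limma adjusted p 0.019), but was not called with quantile normalization (adjusted p 0.074) or without the 10 arrays (adjusted p 0.070). Mitochondrial ribosomal proteins, which build the separate ribosome of mitochondria, rose in 54 of 99 probe sets and fell in 7, with a median of 0.13. Mrps6 rose by 0.58 (adjusted p 1.8e-09) and Mrpl57 by 0.43 (adjusted p 8.95e-10). Genes of ribosome biogenesis and RNA polymerase I rose in 23 and fell in 9 of 53 probe sets, among them Bysl (0.36, adjusted p 9.6e-08) and Dkc1 (-0.55, adjusted p 1.6e-10). Initiation factors rose in 13 and fell in 16 of 50 probe sets, with Eif4e, the cap-binding protein, at 0.31 (adjusted p 3.6e-07) and Eif4h at -0.20 (adjusted p 3.1e-08). Of 8 elongation factor probe sets 2 rose and 1 fell. The one that fell was Eef2 (-0.17, adjusted p 0.00068), the translocase. TOR complex 1 genes rose in 9 and fell in 6 of 31 probe sets, with Mtor at 0.24 (adjusted p 6.1e-05) and Eif4ebp2 at -0.29 (adjusted p 2.1e-06).

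Fat pads are mixed tissue, and fewer cells of a type cannot be told apart from less RNA per cell. Mesothelial markers (8 genes) fell in 9 of 11 probe sets over both genotypes, where 20.3% of all probe sets fell and 18.4% rose. Their mean ranged from -0.74 to 0.25 in Ala/Ala HFD and from -0.41 to 0.65 in Pro/Pro HFD fat. It ranged from -0.19 to 0.65 in Ala/Ala chow and from -0.04 to 1.07 in Pro/Pro chow fat. Markers of epididymis and testis (10 genes) rose in 7 of 11 probe sets. Their mean reached -0.08 and 0.39 in Ala/Ala HFD and Pro/Pro HFD fat, against -2.23 and -2.0 in Ala/Ala chow and Pro/Pro chow fat. Hepatocyte markers had means up to 1.81 and 1.89 in Ala/Ala HFD and Pro/Pro HFD fat, and up to 1.99 and 0.87 in Ala/Ala chow and Pro/Pro chow fat. The 10 arrays left out above, 8 of them on HFD, were those with an epididymis and testis mean above -1 or a hepatocyte mean above 0. Fat had 8 Ala/Ala and 10 Pro/Pro HFD arrays before this, so the omission shrinks the HFD groups most. Whether a call was lost with the transcripts of other organs or with the fewer arrays cannot be told apart. Without the 10 arrays 9 of the 15 calls remained (both Rpl13a probe sets, Rpl22, Rpl4, Rps14, Rps15, Rps24, Rps9 and Rpsa). Adipocyte marker means ranged from -0.11 to 0.05 over all HFD fat arrays, against -0.35 to -0.06 over all chow fat arrays, and 1 of 7 probe sets rose and 2 fell. The part of mesothelial and adipocyte transcripts in the ribosomal protein differences was not tested.

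In muscle the same genes leaned lower on HFD with fewer calls. Over both genotypes 5 of 33 fell and none rose, where 5.37% of all probe sets were called (3.31% lower and 2.05% higher). The median member difference was -0.07, against 0.00 over all probe sets, and 29 of 33 lay below 0 (87.9%, against 48.2% of all). In Ala/Ala mice 1 member fell (1.95% of all probe sets were called, 0.938% lower and 1.02% higher) and in Pro/Pro mice 2 fell (0.956% of all, 0.542% lower and 0.414% higher). Rpl22 100030140_TGI_at was called in each. It ranged from -0.08 to 0.17 (median 0.04) in Ala/Ala HFD muscle, against 0.04 to 0.49 (median 0.20) in Ala/Ala chow muscle. In Pro/Pro HFD muscle it ranged from -0.15 to 0.10 (median -0.04), against 0.09 to 0.36 (median 0.16) in Pro/Pro chow muscle, so the Pro/Pro groups meet only at the edges and the Ala/Ala groups overlap more. It fell by 0.17 ± 0.05 (SE) in Ala/Ala mice (limma adjusted p 0.043) and by 0.21 ± 0.05 in Pro/Pro mice (adjusted p 0.029), beside -0.18 and -0.22 in fat. These muscle calls of Rpl22 were lost in 15 and 6 of 35 omissions of a single array and with quantile normalization, where only the call over both genotypes (-0.19 ± 0.03, adjusted p 0.00033, before that normalization) was kept. Rpl22l1, its relative, fell in muscle too, by 0.18 ± 0.05 over both genotypes (adjusted p 0.017). Rpl36a, a protein near the tRNA exit site, ranged from -0.25 to 0.16 (median -0.08) in Pro/Pro HFD muscle, against 0.07 to 0.27 (median 0.14) in Pro/Pro chow muscle. It fell by 0.21 ± 0.06 in Pro/Pro mice (adjusted p 0.044, lost in 16 of 35 omissions of a single array and with quantile normalization), and gave -0.08 ± 0.05 in Ala/Ala mice (adjusted p 0.60). Rpl36al fell by 0.11 ± 0.03 over both genotypes (adjusted p 0.0091).

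The other muscle calls over both genotypes were Rpl15, Rps9 and Rpl4. Rpl15, an early-assembling large-subunit protein, fell by 0.15 ± 0.05 (SE, limma adjusted p 0.041), Rps9 by 0.10 ± 0.03 (adjusted p 0.044) and Rpl4 by 0.07 ± 0.02 (adjusted p 0.048). These 3 lost the call in 14, 19 and 26 of 35 omissions of a single array, while Rpl22 and Rpl36a kept it in every omission. The adipocyte marker mean in muscle ranged from 0.00 to 1.25 in Ala/Ala HFD, from -0.36 to 0.52 in Ala/Ala chow, from -0.24 to 0.47 in Pro/Pro HFD and from -0.67 to 0.95 in Pro/Pro chow arrays. With that mean as a covariate, Rpl22 and Rpl36a remained called over both genotypes and the other 3 did not, and quantile normalization left the same 2 (6.06% of members lower, beside 2.73% of all probe sets). At an unadjusted p under 0.05 (limma) there were 17 of 33 members, against 17.7% of all probe sets. Of 50 initiation factor probe sets 6 fell and none rose, among them Eif1ax (-0.23, adjusted p 0.00076). Over all probe sets 3.31% fell and 2.05% rose. Of 8 elongation factor probe sets 1 fell, that of Eef1b2 (-0.13, adjusted p 0.0016), and of 99 mitochondrial ribosomal probe sets 1 rose and 3 fell.

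In liver no member passed for diet in Ala/Ala mice, in Pro/Pro mice or over both genotypes (limma, 0% of all probe sets called in each). At an unadjusted p under 0.05 there were 1, 2 and 1 members in these comparisons, against 2.85%, 5.8% and 4.82% of all probe sets. The smallest p within a genotype belonged to Rpl41, a very short basic peptide of the large subunit. It ranged from -0.09 to 0.16 (median -0.03) in Pro/Pro HFD liver, against 0.04 to 0.22 (median 0.13) in Pro/Pro chow liver, a difference of -0.14 ± 0.04 (SE, adjusted p 0.85). Over both genotypes the 33 differences lay between -0.10 and 0.11 with a median of -0.02, and 22 of 33 were below 0, where 51.3% of all probe sets were. Standard errors over both genotypes were between 0.03 and 0.08, much as in fat (0.03 to 0.07) and muscle (0.02 to 0.08).

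Some diet differences were unlike between tissues by a direct test. Between fat and muscle 4 of 33 probe sets were called (25.1% of all probe sets), and between fat and liver 6 of 33 (26.6% of all). The Rps24 probe set 100019165_TGI_at gave the largest, -0.60 ± 0.10 (SE) for fat minus muscle (limma adjusted p 5.9e-07) and -0.55 ± 0.09 for fat minus liver (adjusted p 1.5e-06). Rpl13a 100007834_TGI_at was higher in fat by 0.29 ± 0.09 against muscle (adjusted p 0.0084) and by 0.28 ± 0.08 against liver (adjusted p 0.0073). Against muscle Rpl15 (0.19) and Rpsa (0.17) were higher in fat. Against liver Rps3 100008809_TGI_at (0.22) and Rpl41 (0.11) were higher and Rpl37 (-0.20) and Rpl4 (-0.13) lower. With quantile normalization Rps24, Rpl13a and Rps3 kept these calls, while Rpl15, Rpsa, Rpl41, Rpl37 and Rpl4 did not. With median centring Rpl15 and Rpsa lost theirs against muscle and Rpl41 lost its call against liver. Without the 10 fat arrays Rpl15 lost its call against muscle, and Rps3, Rpl37 and Rpl4 lost theirs against liver. Between muscle and liver no member was called (limma, 4 at an unadjusted p under 0.05, 0.824% of all probe sets called and 9.01% at an unadjusted p under 0.05). The share of members called was below that of all probe sets in each comparison with fat, and no member was called in opposite directions in fat and muscle.

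Genotype left these genes without a call. In fat 0 of 33 passed on HFD, on chow or over both diets (limma), where 0.0705%, 0.0153% and 0.0429% of all probe sets did. In muscle 0 of 33 passed in each (0.0153%, 0.0184% and 0.0337% of all), and in liver 0 of 33 in each (0%, 0% and 0.0153% of all). The signs leaned in opposite ways in fat and muscle. Over both diets 27 of 33 Ala/Ala minus Pro/Pro differences lay below 0 in fat (81.8%, against 45.3% of all probe sets), with a median of -0.03. In muscle 5 of 33 did (15.2%, against 49.8%), with a median of 0.03, and in liver 12 of 33 (36.4%, against 54.1%), with a median of 0.02. Members moved together within groups (median pair correlation 0.22 in fat, 0.17 in muscle and 0.31 in liver). The signs are therefore not independent of each other, and the lean was not tested. At an unadjusted p under 0.05, on HFD, chow and both diets, there were 1, 0 and 0 members in fat, against 9.02%, 2.27% and 6.04% of all probe sets. There were 3, 0 and 2 in muscle, against 8.22%, 3.19% and 6.97%, and 2, 2 and 5 in liver, against 8.75%, 9.7% and 14.8%. The methods' t-test also called no member at a false discovery rate of 20%, and at an unadjusted p under 0.05 it held, on HFD and on chow, 1 and 0 members for fat, 5 and 1 for muscle, and 2 and 3 for liver. At that rate it called 10 and 1 of all 32640 probe sets in fat on HFD and chow, 29 and 5 in muscle, and 1 and 3 in liver. With so few calls over all probe sets, 0 member calls show no lack. Its unadjusted member counts have no share of all probe sets beside them and show no excess or lack. The interaction of diet and genotype called 0 members in muscle and liver as well (limma, 0% of all probe sets called). At an unadjusted p under 0.05 it held 2 members in muscle, against 4.18% of all probe sets, and 1 in liver, against 3.56%. The smallest genotype p was that of Rpl22 100004636_TGI_at in liver on chow. It ranged from -0.12 to 0.33 (median 0.14) in Ala/Ala chow liver, against -0.19 to 0.15 (median -0.11) in Pro/Pro chow liver, a difference of 0.21 ± 0.05 (SE, adjusted p 0.28). On HFD the same Rpl22 probe set averaged 0.00 in Ala/Ala and in Pro/Pro liver.

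Rps18, a reference gene, had the smallest p on HFD in muscle. It ranged from -0.20 to -0.03 (median -0.15) in Ala/Ala HFD muscle, against -0.11 to 0.24 (median 0.00) in Pro/Pro HFD muscle, a difference of -0.16 ± 0.05 (SE, limma adjusted p 0.45). In liver on HFD Rps18 gave -0.19 (adjusted p 0.51) and on chow 0.01, with group means of -0.22 in each genotype. Rpl32 lies on chromosome 6 beside Pparg itself, with 7 protein-coding genes between them in the NCBI table, so it travels with the knock-in locus. Its genotype difference in fat was -0.01 on either diet. For HFD and chow it was -0.03 and -0.02 in muscle, then -0.08 and -0.04 in liver, each within 2 standard errors (adjusted p 0.70 or above).

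Within groups the members were among the less variable probe sets. Their within-group SD had a median of 0.137 in fat, 0.103 in muscle and 0.155 in liver, against 0.170, 0.148 and 0.175 over all probe sets. Of the 33, 28 in fat, 27 in muscle and 24 in liver lay below the median of all probe sets. Rps16 was steady within groups, with an SD of 0.08 in fat, 0.06 in muscle and 0.11 in liver, and Rpl32 had 0.09, 0.09 and 0.12. Rps18 had 0.16, 0.10 and 0.18, and Rpl13a depended on the probe set (0.10 or 0.16 in fat, 0.09 or 0.16 in muscle, 0.15 or 0.22 in liver). Among common reference genes Rps16 and Rpl32 therefore had the smaller spread within groups in these arrays. Neither had a diet or genotype call, but Rps16 stood near the threshold for diet in fat, as given above. Rps18 had no call either, while Rpl13a had calls in fat.

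Members also tended to move together from mouse to mouse after group means were removed, though not all did. The median correlation over their 528 pairs was 0.22 in fat (37 arrays), 0.17 in muscle (35) and 0.31 in liver (40). Pairs from every 20th probe set of the table had medians of 0.01, 0.00 and 0.00. The pairs share arrays, pool and scaling, so these values are descriptions. Against the median of the other genes, 15 of 33 members in fat, 15 in muscle and 20 in liver had r above 0.5. There 6, 4 and 2 members lay below 0. Rpl13a 100006889_TGI_at followed the median of the other genes with r of 0.90 in fat, 0.81 in muscle and 0.92 in liver, and Rps16 with 0.84, 0.73 and 0.88. Rps27 and Rpl4 did so with 0.82 and 0.83 in fat and 0.84 and 0.90 in liver. Rps18, read by 1 probe set, went its own way in all 3 tissues (-0.38 in fat, -0.20 in muscle, -0.14 in liver). Whether pyrimidine runs in the promoter windows go with these correlations was not tested. Rpl8 was split by probe set: 100024017_TGI_at followed with 0.76, 0.50 and 0.93 and 100019047_TGI_at with -0.15, -0.29 and -0.01. The Rps24 probe set with the large diet fall followed weakly (0.18 in fat, -0.24 in muscle, 0.37 in liver).

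The median of the 27 genes on an array, taken as a summary, gives the size of this shared movement. In fat its mean was -0.04 ± 0.07 (SD, n = 8) for Ala/Ala HFD and 0.03 ± 0.07 (n = 9) in Ala/Ala chow mice, and -0.01 ± 0.07 (n = 10) in Pro/Pro HFD and 0.04 ± 0.05 (n = 10) in Pro/Pro chow mice. In muscle its mean was 0.03 ± 0.04 (n = 9) for Ala/Ala HFD and 0.08 ± 0.06 (n = 10) in Ala/Ala chow mice, and -0.02 ± 0.05 (n = 8) in Pro/Pro HFD and 0.06 ± 0.04 (n = 8) in Pro/Pro chow mice. In liver the 4 groups averaged between -0.01 and 0.04 with SDs of 0.07 to 0.10 (n = 10 each). The groups overlap in every tissue. The distance between diets was close to the spread between mice of a group in fat and in Ala/Ala muscle, and larger than it in Pro/Pro muscle. The summary of a mouse in one tissue said little of the same mouse in another: Pearson's r of the deviations from group means was -0.12 for fat and muscle (31 mice, and 0.11 without the 2 farthest), 0.14 between fat and liver (36), and 0.13 between liver and muscle (35).

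**Figure D5:**
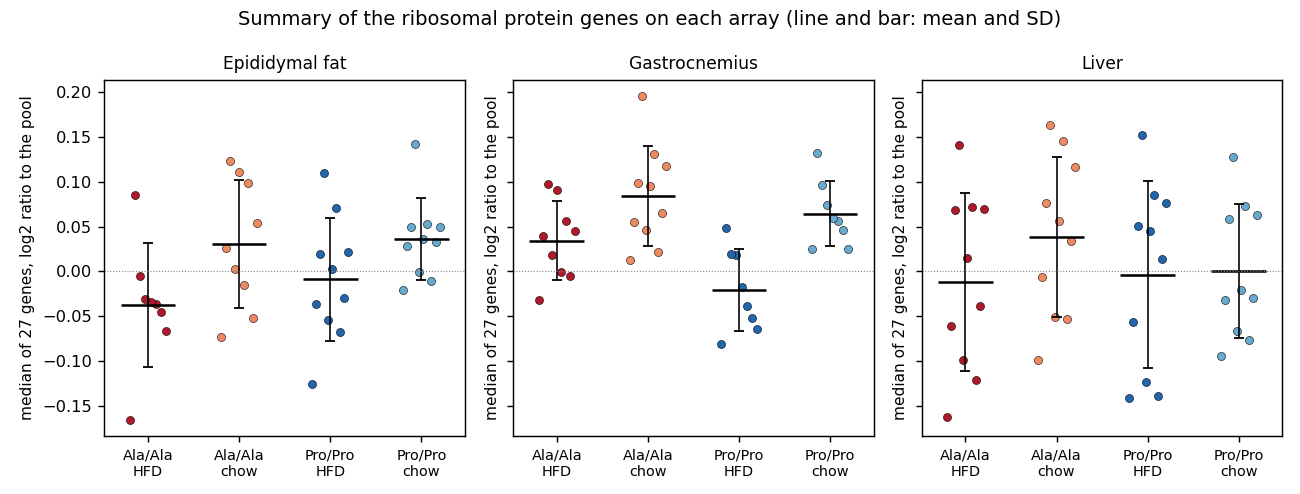
Median over the 27 genes of the log2 ratio to the pool on each array, by tissue, genotype and diet, with mean and SD. All groups overlap, fat and muscle chow means lie above the HFD means of the same genotype, and liver groups spread most widely.

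Other genes of translation tracked the summary from mouse to mouse in part. Fau, whose product is a ribosomal protein, did so with r of 0.86 in fat, 0.71 in muscle and 0.83 in liver. Eef1b2, a subunit of the elongation factor exchange complex, followed with 0.83, 0.73 and 0.84. Eef2 did so less in fat and muscle (0.33 and 0.30) than in liver (0.80), and the mean of the elongation factors gave 0.21, 0.59 and 0.56. The mean of the initiation factors followed with 0.36, 0.76 and 0.60. That of ribosome biogenesis gave -0.19 in fat, 0.50 in muscle and 0.58 in liver, and that of TOR complex 1 gave -0.19, 0.36 and 0.24. Mitochondrial ribosomal proteins went with the summary in muscle (0.71), against it in fat (-0.45) and hardly at all in liver (0.11). In fat the summary also went against the array median (-0.54), a value set by scaling, while in muscle and liver that correlation was -0.07 and 0.16.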

How the data were processed

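Microarray values were taken from the authors' deposited table of log10 ratios, 32640 probe sets by 112 arrays, made with Rosetta Resolver against a virtual pool of Pro/Pro HFD mice of the same tissue, per the series text. They were turned into log2. The pool could be rebuilt from the arrays in fat and liver. In muscle it could be rebuilt only in part, since 8 arrays of its Pro/Pro HFD group are used here, so base and direction there were taken from the other tissues. GEO's platform annotation named 25508 probe sets with 1 gene and none with several, 7132 had no name, and symbols were updated with NCBI's table.

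Each tissue was fitted with limma 3.58.1 (R 4.3.3) with a mean per genotype and diet group, and tissue differences in a joint fit over all arrays. P-values were adjusted by Benjamini-Hochberg over all probe sets and called under 0.05. The scripts were tested on simulated data. Named members were those called in a comparison, or otherwise those with the smallest p, together with the reference genes and relatives of members. The mouse number marks the same animal across tissues, per the labels. Deviations of the same mouse had a median correlation of 0.01 (fat and muscle), -0.02 (fat and liver) and -0.01 (muscle and liver) over all probe sets. The methods' t-test at a 20% false discovery rate, normalizations, filters, weights and omissions were alternatives. Members and gene lists were chosen with earlier results of these data known.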

Additional observations from a re-analysis of the deposited data

Results flagged for a closer look

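Single mice stood apart from the rest of their group in 7 of 120 groups tested (9 member probe sets and the median of the 27 genes). Chance gives about 1 in 20, so the count is close to that of chance, and the mice are listed as descriptions. In Ala/Ala HFD fat, Mouse99 lay at -0.36 for Rpl36a and -0.29 for Rpl13a 100006889_TGI_at, against group medians of -0.05 and -0.02. It is 1 of the 10 fat arrays with transcripts of other organs. In the same group Mouse152 lay at 0.49 for Rpl13a 100007834_TGI_at. In Pro/Pro chow fat, Mouse89 had a median of 0.14 over the 27 genes. In muscle, Mouse127 (Ala/Ala HFD) lay at -1.10 for Rps24 100030631_TGI_at, against a group median of 0.12, and Mouse113 (Ala/Ala chow) at 0.25 for Rps15. In liver, Mouse123 (Pro/Pro HFD) lay at 0.41 for Rps24 100019165_TGI_at.

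The diet difference of 8 probe sets differed between tissues by a direct test (limma), 4 of 33 for fat minus muscle, against 25.1% of all probe sets, and 6 of 33 for fat minus liver, against 26.6%. With quantile normalization Rps24, Rpl13a and Rps3 kept the call and the other 5 lost it. Fat minus muscle was -0.60 for Rps24 100019165_TGI_at, 0.29 for Rpl13a 100007834_TGI_at, 0.19 for Rpl15 and 0.17 for Rpsa. Fat minus liver was -0.55 for the same Rps24 probe set, 0.28 for the same Rpl13a probe set, 0.22 for Rps3 100008809_TGI_at, 0.11 for Rpl41, -0.13 for Rpl4 and -0.20 for Rpl37.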

How the results depend on the processing

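The number of arrays, and not a read depth, limits precision, and the table gives no signal over background. The calls of members depend much on the normalization. With quantile normalization 21 of 45 called gene results kept their call and 24 lost it, and in the Ala/Ala, Pro/Pro and combined diet comparisons 4, 3 and 7 members were called in fat and 0, 0 and 2 in muscle, with 2 for fat minus muscle and 3 for fat minus liver. Median centring ended 3 calls and left 2 for fat minus muscle. An adjusted p of 0.20 gave 16 members in Ala/Ala and 11 in Pro/Pro fat, 2 in Ala/Ala muscle, 15 in muscle over both genotypes, 2 for genotype in liver over both diets, 7 for fat minus muscle, 15 for fat minus liver and 1 for muscle minus liver. With probe sets of a gene averaged there were 4 and 3 calls in Ala/Ala and Pro/Pro fat and 0 and 1 in muscle. Testing only probe sets above the median variance, which leaves fewer members, gave 3, 2 and 3 calls in fat, 0 in each muscle comparison, and 2 for either tissue difference with fat. Array weights gave 0 in Ala/Ala muscle, and so did the adipocyte covariate, which gave 2 over both genotypes. Without the 10 fat arrays 2 and 3 members were called in Ala/Ala and Pro/Pro fat. The covariate and this omission were chosen after seeing the data. The share of all probe sets called was worked out only for the diet effect over both genotypes. There it covers median centring, quantile normalization, the covariate and the omission. The other counts in this paragraph, those at an adjusted p of 0.20 among them, have no such share beside them and show no excess or lack of member calls.

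Directions turned only where the probe sets of a gene were averaged or 1 was chosen to stand for the gene. Where Rpl13a 100006889_TGI_at fell, the mean of the Rpl13a probe sets gave 0.0442 in Ala/Ala fat and 0.0532 over both genotypes. The Rpl13a probe set of highest variance, 100007834_TGI_at, gave 0.23 in each. With the highest-variance probe set, Rpl8 gave 0.0167 in fat over both genotypes and the Rpl22 interaction in liver was 0.0644. The mouse number as a replicate block gave 4, 6 and 0 members for the 3 tissue differences and changed no call. Leaving out 1 array gave 3 to 10 members in Ala/Ala fat, 4 to 8 in Pro/Pro fat, 12 to 17 over both, 0 to 1 in Ala/Ala muscle, 0 to 2 in Pro/Pro muscle, 2 to 6 over both, and 0 in liver. In Ala/Ala fat the count was 4 without Mouse109 or Mouse149 or Mouse99 and 3 without Mouse113 or Mouse122, and in Pro/Pro fat it was 8 without Mouse137. In muscle 15, 18 and 18 of 35 omissions moved the count of Ala/Ala, Pro/Pro and combined calls by over 1.5 times. Apart from these, the cause of a changed call was not tested.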

Other observations

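Genes of fatty acid synthesis and desaturation were read against the median of the 27 ribosomal protein genes after seeing the data, within groups and with no test. In liver (40 arrays) Pearson's r was -0.72 for Srebf1, the factor that drives lipid synthesis (Spearman's rho -0.75, r -0.72 without the 2 farthest arrays). It was -0.69 for Scd1 (rho -0.69, r -0.64), a desaturase, and -0.59 for Fasn (rho -0.59, r -0.55), the fatty acid synthase. Fads2, a desaturase of polyunsaturated fatty acids, gave -0.65 (rho -0.68, r -0.59). In fat (37 arrays) r was -0.73 for Fasn (rho -0.70, r -0.76) and -0.65 for Scd1 (rho -0.62, r -0.67), but -0.29 for Srebf1, and Fads2 went the other way at 0.29 (rho 0.21, r 0.38). In muscle (35 arrays) r was -0.08 for Fasn, -0.10 for Scd1, -0.05 for Srebf1 and -0.06 for Fads2. These values share arrays, pool and scaling, and in fat the summary also went against the array median (-0.54).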
